A study of Homo sapiens with 10 samples.

Results

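Integrins are the receptors with which a cell holds on to the matrix around it. Each receptor is an α subunit joined to a β subunit, and the pair decides the ligand. Receptors with α3 or α6 bind laminins, α2 with β1 binds collagen, and α5 with β1 binds fibronectin. αV can join several β subunits and reads the RGD motif of matrix proteins such as vitronectin, and with β8 it binds latent TGF-β. α6 with β4 anchors epithelial cells through hemidesmosomes. Talins and kindlins bind the β tails inside the cell and switch the receptor on, and focal adhesion kinases and adaptors carry the signal. In ovarian cancer cells, integrins are known for attachment to the mesothelium and to the matrix under it.

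The members are 10 integrin subunit genes taken by symbol, 5 α subunits (ITGA2, ITGA3, ITGA5, ITGA6 and ITGAV) and 5 β subunits (ITGB1, ITGB3, ITGB4, ITGB5 and ITGB8), of 58395 genes in the count files. Each symbol matched 1 Ensembl gene. In hg38 the α subunit genes lie at chr5:52989340-53094779 (ITGA2, ENSG00000164171), chr17:50055968-50090481 (ITGA3, ENSG00000005884), chr12:54395261-54419266 (ITGA5, ENSG00000161638), chr2:172427354-172506459 (ITGA6, ENSG00000091409) and chr2:186590010-186680901 (ITGAV, ENSG00000138448). The β subunit genes lie at chr10:32887273-33005792 (ITGB1, ENSG00000150093), chr17:47253827-47313743 (ITGB3, ENSG00000259207), chr17:75721328-75757818 (ITGB4, ENSG00000132470), chr3:124761948-124901418 (ITGB5, ENSG00000082781) and chr7:20330702-20415754 (ITGB8, ENSG00000105855). The libraries are from HeyA8, an established human ovarian cancer cell line, which was transfected with an siRNA duplex at 10 nM in every group. At 24 h there were 2 libraries of siNT1, labelled S2'OM, the non-targeting control duplex, and 2 of siGGGGGC, titled siMxy. At 48 h there were 2 libraries each of siNT1 S2'OM, of siGGGGGC and of siGGCAGU, titled si34a. siGGGGGC and siGGCAGU are named after their 6mer seed, guide positions 2 to 7, with which a guide pairs to a message as a microRNA does. Duplicates were wells of a transfection of 1 cell line, so the p-values reflect the spread between wells and libraries. There was no untreated group, and siGGCAGU was not sampled at 24 h in the libraries analysed here. RNA came from whole wells, so fewer cells of a kind and less RNA per cell cannot be told apart. The study reports that siGGGGGC and siGGCAGU slowed the growth and lowered the viability of HeyA8 cells compared with siNT1. The part of this in the integrin values was not tested.

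The 6mer seeds, bases 2 to 7, are shown here in microRNAs that share them. Capitals mark the seed, bases 2 to 8, in the mature RefSeq sequences for GRCh38.p14. The first 6 of the capital letters are the seed of the siRNA. The last capital, base 8, is G in both microRNAs, while both siRNA guides have A there.
hsa-miR-34a-5p, which shares its seed with siGGCAGU: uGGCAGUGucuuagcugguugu
hsa-miR-1237-5p, which shares its seed with siGGGGGC: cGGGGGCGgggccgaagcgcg
A message that pairs with the siGGGGGC seed holds GCCCCC, and one that pairs with the siGGCAGU seed holds ACTGCC. The sense strand of the longest 3′ UTR that GENCODE 44 annotates for each gene was searched for these words. A 6mer site is the word alone. A 7mer-A1 site has an A after it. A 7mer-m8 site has a T before it, which pairs with position 8 of the siRNA guide, and an 8mer site has both. The site types are thus those of the siRNA guides and not of the microRNAs printed, where that T does not pair with the G at base 8.

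GCCCCC was found in 5 of the 10 integrin subunits (ITGA2, ITGA3, ITGA5, ITGB3 and ITGB5), and 30.2% of the 19248 protein-coding genes with a 3′ UTR hold it. ACTGCC was found in 3 subunits (ITGA6, ITGB3 and ITGB8), against 32.7% of those genes. ITGAV, ITGB1 and ITGB4 held neither word, and CGACTA, the match of the siNT1 seed, was in 0 of the 10. With the shortest annotated 3′ UTR in place of the longest, 3 subunits held GCCCCC and 0 held ACTGCC, beside 15.9% and 15.5% of the same protein-coding genes. A match is a description of letters, not a measured site. The sites printed are those of the members on which the comparisons turn, in hg38 coordinates of the word, with 12 bases on either side and the word in capitals.
ITGA2, 7mer-A1, plus strand, chr5:53092142-53092147: ctctgttcctgaGCCCCCacattctctagg
ITGA3, 7mer-m8, plus strand, chr17:50090272-50090277: cagcctggctctGCCCCCtcccccatgggc
ITGA5, 8mer, minus strand, chr12:54395278-54395283: atctgacccagtGCCCCCactgaccagaac
ITGB5, 8mer, minus strand, chr3:124762900-124762905: acttaaaatggtGCCCCCagtggggattga
ITGA6, 6mer, plus strand, chr2:172504471-172504476: gatttttctttaACTGCCgtaatttaactt
ITGB8, 8mer, plus strand, chr7:20410729-20410734: tgctaagttactACTGCCataaaaaactaa
ITGA3 held 5 copies of GCCCCC, 3 of them 6mer sites, in a 3′ UTR of 1403 bases. ITGA5 and ITGB5 held 2 copies each, and ITGB8 held its single ACTGCC in 5757 bases.

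**Figure D1:**
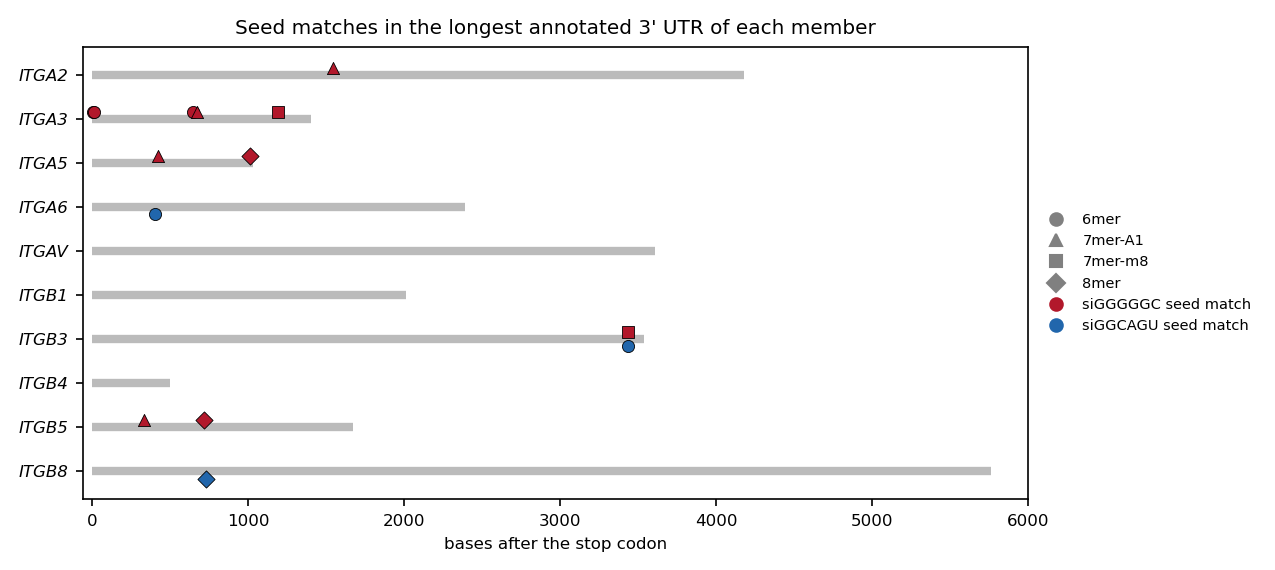
Position of each seed match in the longest annotated 3′ UTR of the 10 integrin subunits, in bases after the stop codon. Grey bars are the 3′ UTR, red symbols match the siGGGGGC seed, blue symbols match the siGGCAGU seed, and the symbol shape gives the site type. A red symbol stands on 5 genes and a blue one on 3, and ITGB3 carries both at overlapping positions.

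Total counts per library ranged from 19781445 to 42428986, and the 10 subunits together took 0.120% to 0.274% of a library. Replicates differed by more than counting noise in every group, and each was counted as a library of its own. Chi-square per degree of freedom over the genes tested was 2.19 and 3.15 at 24 h and 10.3 to 40.0 at 48 h. This excess does not show that the wells were independent. The 10 genes that the study named as siGGGGGC targets, which it picked from libraries including these, were lower in the siGGGGGC libraries in 10 of 10 cases at both times, and with siGGCAGU at 48 h 6 of them were lower and 2 higher. Of cell type markers, keratins KRT7, KRT8 and KRT18 (74.8 to 398 CPM) and VIM (786 to 1514 CPM) were expressed in every library, while KRT19 (0.344 to 1.75 CPM) and the defining epithelial markers EPCAM (0.403 to 1.56 CPM) and CDH1 (0.0298 to 0.744 CPM) were near 0. The ovarian carcinoma markers PAX8 (3.35 to 35.0 CPM) and MUC16 (0 to 1.19 CPM) were low. Summed leukocyte markers reached at most 0.279 CPM, endothelial markers 2.02 CPM and fibroblast markers 2.19 CPM. At 48 h the 6 epithelial markers summed to 658 and 665 CPM in siNT1, 250 and 265 in siGGGGGC and 737 and 877 in siGGCAGU. The 3 ovarian carcinoma markers summed to 29.4 and 30.1, 4.74 and 6.63, and 31.0 and 36.5 CPM in the same order, and the 3 mesenchymal markers to 1608 and 1684, 914 and 942, and 1172 and 1294 CPM. At 24 h, siNT1 and siGGGGGC libraries held 699 to 714 and 793 to 878 CPM of the epithelial markers, 22.8 to 22.9 and 12.4 to 14.4 of the ovarian carcinoma markers, and 1583 to 1598 and 1278 to 1296 of the mesenchymal markers. The epithelial sums were nearly all KRT7, KRT8 and KRT18, and the mesenchymal sums were mostly VIM. The part of these shifts in the integrin values was not tested.

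HeyA8 cells given siNT1 expressed ITGA6 above every other subunit in the list at both times. A level here is a normalised read count, the count scaled to a common library size, and levels of different genes are compared only per kilobase of exon. Per kilobase, siNT1 cells at 48 h held 4719 ± 166 (SD, n = 2) normalised counts of ITGA6, the laminin receptor subunit. ITGB1, the common β partner, followed at 1203 ± 2.22. ITGA3, a further laminin receptor subunit, stood at 372 ± 47.1 and ITGA5, the fibronectin receptor subunit, at 293 ± 29.5. These subunits make receptors for laminin and fibronectin with β1. Next came ITGB5 at 191 ± 23.0, ITGAV at 144 ± 5.74 and ITGA2, the collagen receptor subunit, at 80.4 ± 2.68. ITGB8 (0.939 ± 0.0451), ITGB3 (0.774 ± 0.0275) and ITGB4 (0.568 ± 0.155) were close to 0. No neighbours in this order overlapped between their libraries. With the length of the longest transcript in place of all exons, 8 of 10 kept their rank, and ITGAV and ITGB5 changed places. At 24 h the siNT1 order was the same down to ITGA2, and ITGB3 and ITGB4 overlapped above ITGB8.

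The hemidesmosome subunit ITGB4 and the platelet and endothelial subunit ITGB3 were therefore hardly measured. ITGB4 had 0 to 10 reads in each library, and its 0 in a siGGGGGC library at 24 h allows a normalised count of up to 4.29 by counting error alone. ITGB3 had 1 to 25 reads, and 33.2% of its exon bases are shared with a same-strand gene, ENSG00000259753, that had 0 reads in every library, so its counts are uncertain. Both fell below the filter on low counts, and 8 subunits were tested.

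The make-up of the integrin message is given as each subunit's share of the summed counts per kilobase of the 10 genes. In siNT1 cells ITGA6 took 71.4% at 24 h and 67.4% at 48 h. It took 64.9% with siGGGGGC at 24 h, 36.2% with siGGGGGC at 48 h and 34.6% with siGGCAGU. By the length of all exons, ITGA6 was thus the larger part of the pool in 3 groups and close to ITGB1 in the other 2. ITGB1 went from 17.2% in siNT1 at 48 h to 35.6% with siGGGGGC and 29.6% with siGGCAGU. ITGAV took 2.05% of the control pool, 10.0% with siGGGGGC and 7.26% with siGGCAGU. ITGA3 took 5.31%, 4.89% and 14.1% in the same order. The 2 libraries of siGGGGGC at 48 h overlapped between ITGA6 and ITGB1, and with the longest transcript as length ITGB1 stood above ITGA6 in both siRNA groups at 48 h. All exons of ITGB1 span 14561 bases and its longest transcript 5614, while ITGA6 has 6679 and 5816. The shares therefore depend on the length chosen, and those by the longest transcript are not given.

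**Figure D2:**
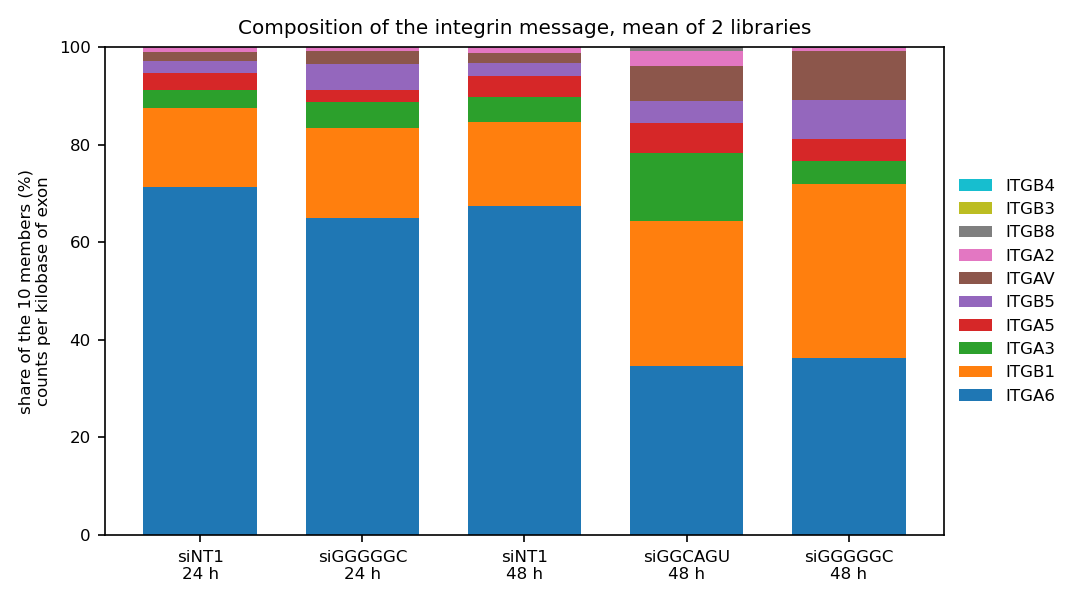
Share of each integrin subunit in the summed normalised counts per kilobase of exon of the 10 genes, in percent, as the mean of 2 libraries in each of the 5 groups. The ITGA6 share is 71.4% and 67.4% in siNT1 at 24 and 48 h, and 34.6% and 36.2% in siGGCAGU and siGGGGGC at 48 h.

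To ask which subunits moved early, siGGGGGC was compared with siNT1 at 24 h. Of 8 subunits tested, 4 were lower and 1 was higher at an adjusted p below 0.05 by edgeR's quasi-likelihood test, where 8.32% of all 16905 genes tested were lower and 10.6% were higher. By edgeR, DESeq2 or limma-voom 0 of 8 were called beyond a log2 fold change of 1, beside 2.17% lower and 1.55% higher among all genes by edgeR, and 0 were beyond it at an unadjusted edgeR p below 0.05. In 5 of the 10 subunits both siGGGGGC libraries lay below both controls and in 2 above, beside 30.7% and 32% of the genes tested. ITGA5 had 1545 and 1538 normalised counts in siNT1 and 764 and 877 in siGGGGGC, a log2 fold change of -0.91 ± 0.11 (SE, edgeR adjusted p = 5.11e-05). ITGA2 went from 437 and 473 to 201 and 285 (-0.90 ± 0.15, edgeR adjusted p = 0.000705). In both, each siGGGGGC library lay below each control. ITGA6 went from 28440 and 29960 to 17900 and 18750, a fall by 0.67 on the log2 scale (SE 0.0887, edgeR adjusted p = 9.31e-05). ITGB1 was 14120 and 14700 in siNT1 and 11770 and 10960 in siGGGGGC (-0.34 ± 0.096, edgeR adjusted p = 0.0206), and this call was lost when any one of these 4 libraries was left out (adjusted p 0.0780 to 0.202). ITGB5, the vitronectin receptor subunit, moved the other way, from 911 and 1015 to 1498 and 1414, with a log2 fold change of 0.60 ± 0.11 (edgeR adjusted p = 0.00155).

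ITGA3 and ITGAV did not pass at 24 h. ITGA3 had 2249 and 2201 normalised counts in siNT1 and 2193 and 2129 in siGGGGGC, and the 95% interval of its log2 fold change ran from -0.25 to 0.16. ITGAV had 2208 and 2382 against 2343 and 2032, with an interval from -0.27 to 0.13, and its groups overlapped. ITGB8, with 2 to 6 reads in each of these libraries, had an interval from -0.37 to 2.41, so no difference could be resolved at this depth. The median log2 fold change of the 8 subunits was -0.21, beside 0.0035 for all genes tested.

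At 48 h the siGGGGGC libraries held less of all 4 α subunits other than ITGAV, and more ITGAV. Of 8 subunits, 4 were lower and 2 higher by edgeR at an adjusted p below 0.05, where 27.5% of all genes tested were lower and 27.8% higher. With a log2 fold change beyond 1 as well, 4 were lower and 1 higher, beside 11% and 10.5% of all genes. No subunit had overlapping groups, with 6 below and 4 above the controls, beside 39.3% and 38.1% of all genes. ITGA6 fell from 30740 and 32300 normalised counts to 7318 and 7019, 4.40-fold lower (log2 fold change -2.14 ± 0.092, edgeR adjusted p = 1.03e-10). ITGA2 fell from 650 and 620 to 198 and 156 (-1.84 ± 0.15, edgeR adjusted p = 6.03e-08). Per kilobase of all exons ITGA6 thus came to about the level of ITGB1, though with the longest transcript as length ITGB1 stood above it. ITGA2 stayed the lowest of the 7 well-expressed subunits. ITGA3 went from 3972 and 3319 to 1357 and 1485 (-1.36 ± 0.097, edgeR adjusted p = 1.92e-08). ITGA5 went from 2316 and 2008 to 891 and 1033 (-1.17 ± 0.11, edgeR adjusted p = 3.06e-07).

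ITGAV moved the other way in the same libraries. It rose from 2854 and 2697 normalised counts to 5868 and 5627, 2.07-fold higher, with a log2 fold change of 1.05 ± 0.092 (edgeR adjusted p = 1.61e-07). Its partner ITGB5 had 1352 and 1141 in siNT1 and 1399 and 1677 in siGGGGGC (0.31 ± 0.11, edgeR adjusted p = 0.0244). The gap between the ITGB5 groups was narrow, and the call was lost without siNT1 replicate 2 (0.18, adjusted p = 0.237) and without siGGGGGC replicate 2 (0.17, adjusted p = 0.325). ITGB1 had 17490 and 17540 against 15350 and 15410, and did not pass (log2 fold change -0.19, 95% interval -0.39 to 0.016, edgeR adjusted p = 0.109), though it did in a fit with no low-count filter (-0.31, adjusted p = 0.00416). ITGB8 had 14.7 and 13.8 against 8.94 and 12.4, an interval from -1.13 to 0.34. ITGB3 (5.42 and 5.16 against 10.1 and 8.28) and ITGB4 (3.10 and 4.58 against 10.1 and 8.28) were not tested. The median over the 8 subunits was -0.78 on the log2 scale, beside -0.011 over all genes.

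**Figure D3:**
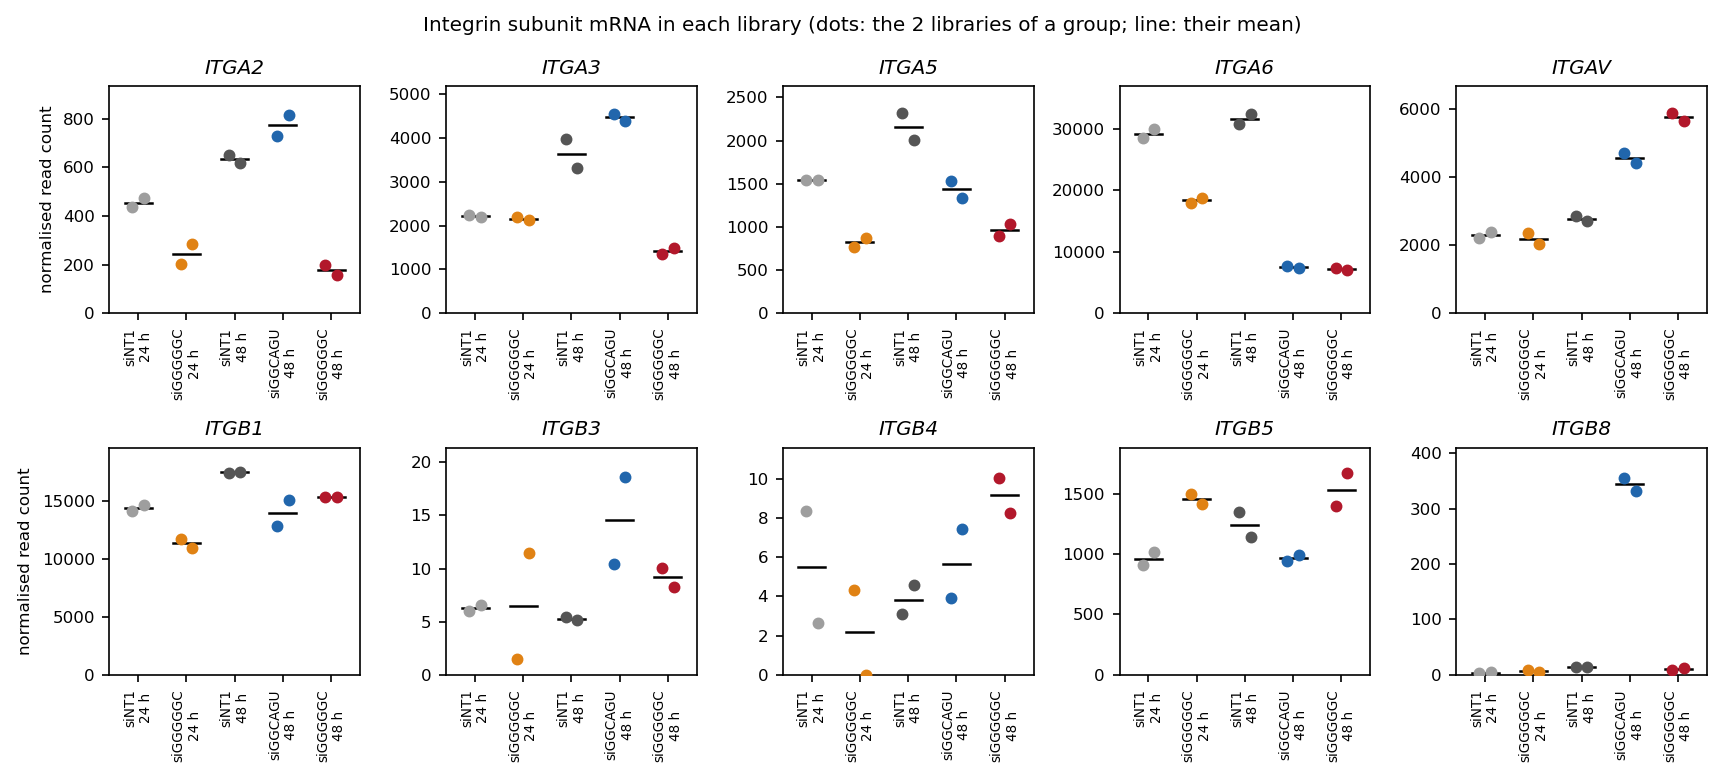
Normalised read count of each integrin subunit in every library, 1 panel a gene with its own linear axis from 0, with dots for the 2 libraries of a group and a line for their mean. ITGA6 is at 7019 to 7619 in all 4 libraries of siGGCAGU and siGGGGGC at 48 h against 28440 to 32300 in siNT1, and ITGB8 stands at 333 and 356 in siGGCAGU and at 14.7 or less elsewhere.

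The effect of siGGGGGC at 48 h was then set against that at 24 h by an interaction term. It differed between the times for 4 of 8 subunits, 3 with a lower effect at 48 h and 1 with a higher one, where 15.2% and 13.4% of all genes were called in these directions. Of these, 2 lower and 1 higher were beyond 1 on the log2 scale, beside 6.36% and 4.83% of all genes. The ITGA6 effect was -0.67 at 24 h and -2.14 at 48 h, a difference of -1.46 ± 0.13 (edgeR adjusted p = 1.05e-06). The ITGA3 effect went from -0.042 to -1.36, a difference of -1.32 ± 0.14 (edgeR adjusted p = 6.32e-06). Both groups changed between the times, from a mean of 2225 to 3645 normalised counts in siNT1 and from 2161 to 1421 with siGGGGGC. The ITGAV effect went from -0.069 to 1.05 (difference 1.12 ± 0.13, edgeR adjusted p = 1.83e-05) and that of ITGA2 from -0.90 to -1.84 (difference -0.94 ± 0.21, edgeR adjusted p = 0.00384). ITGA5, which was already lower at 24 h, showed a difference of -0.26 with a 95% interval of -0.59 to 0.075.

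Control cells changed between the times as well. In siNT1, 5 subunits were higher at 48 h than at 24 h and 0 were lower by edgeR at an adjusted p below 0.05, beside 9.37% and 7.2% of all genes, and 0 subunits were lower at an unadjusted p below 0.05 or by DESeq2 or limma-voom. Beyond a log2 fold change of 1 there was 1 higher and 0 lower, beside 1.06% and 0.461%. In 8 of 10 subunits the groups lay apart with 48 h above and in 1 with 48 h below, beside 30.8% of all genes either way. ITGA3 rose by 0.71 ± 0.095 on the log2 scale (edgeR adjusted p = 0.00044). ITGA2 (0.48), ITGA5 (0.49), ITGB5 (0.37) and ITGB8 (2.14, from 2 and 3 reads to 19 and 24) were also called. The ITGA3 call was kept without any one siNT1 library, but without siNT1 replicate 1 or 2 at 24 h it was the only member called higher, and without replicate 1 at 48 h it and ITGB8 were. Medium was changed at 24 h in the wells kept to 48 h, so time and medium cannot be told apart.

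Cells given siGGCAGU, the duplex with the miR-34a-5p seed, held less ITGA6 and more ITGB8 at 48 h. Of 8 subunits, 4 were lower and 3 higher by edgeR at an adjusted p below 0.05, where 24.9% of all genes were lower and 27.8% higher. With a log2 fold change beyond 1, 1 was lower and 1 higher, beside 9.62% and 10.7%. Both siGGCAGU libraries lay below both controls in 4 of 10 subunits and above in 5, beside 34.9% and 37.7% of all genes. This comparison uses the same siNT1 libraries as that of siGGGGGC at 48 h. ITGA6 had 7619 and 7365 normalised counts, against 30740 and 32300 in siNT1 (log2 fold change -2.07 ± 0.092, edgeR adjusted p = 1.08e-10). ITGB8, the αV partner that binds latent TGF-β, had 272 and 447 reads, which are 356 and 333 normalised counts, against 19 and 24 reads, or 14.7 and 13.8, in siNT1. That is 24.0-fold higher (4.59 ± 0.20, edgeR adjusted p = 9.46e-11). Both siGGCAGU libraries were far above the other 8. ITGAV itself went to 4692 and 4401 (0.71 ± 0.091, edgeR adjusted p = 8.81e-06).

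Changes of the other subunits with siGGCAGU were smaller. ITGA5 had 1531 and 1336 normalised counts against 2316 and 2008 in siNT1 (-0.59 ± 0.11, edgeR adjusted p = 0.000215). ITGB5 had 947 and 991 against 1352 and 1141 (-0.36 ± 0.11, edgeR adjusted p = 0.011), a call lost without siNT1 replicate 1 (adjusted p = 0.113). ITGB1 had 12850 and 15130 against 17490 and 17540 (-0.32 ± 0.095, edgeR adjusted p = 0.00974), a call lost without siGGCAGU replicate 1 (adjusted p = 0.0856). In all 3 both siGGCAGU libraries lay below both controls. ITGA3 had 4556 and 4391 against 3972 and 3319 (0.30 ± 0.094, edgeR adjusted p = 0.0148), a call lost without siNT1 replicate 2 (adjusted p = 0.179). ITGA2 had 728 and 817 against 650 and 620 and did not pass (0.29, 95% interval 0.012 to 0.56, edgeR adjusted p = 0.074), though it did by limma-voom (0.29, adjusted p = 0.044). ITGB3 had 10.5 and 18.6 against 5.42 and 5.16, and ITGB4 3.92 and 7.44 against 3.10 and 4.58. Neither was tested, and in a fit with no filter ITGB3 was called higher (1.44, adjusted p = 0.0139). The median of the 8 subunits was -0.018 on the log2 scale, beside 0.024 over all genes.

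**Figure D4:**
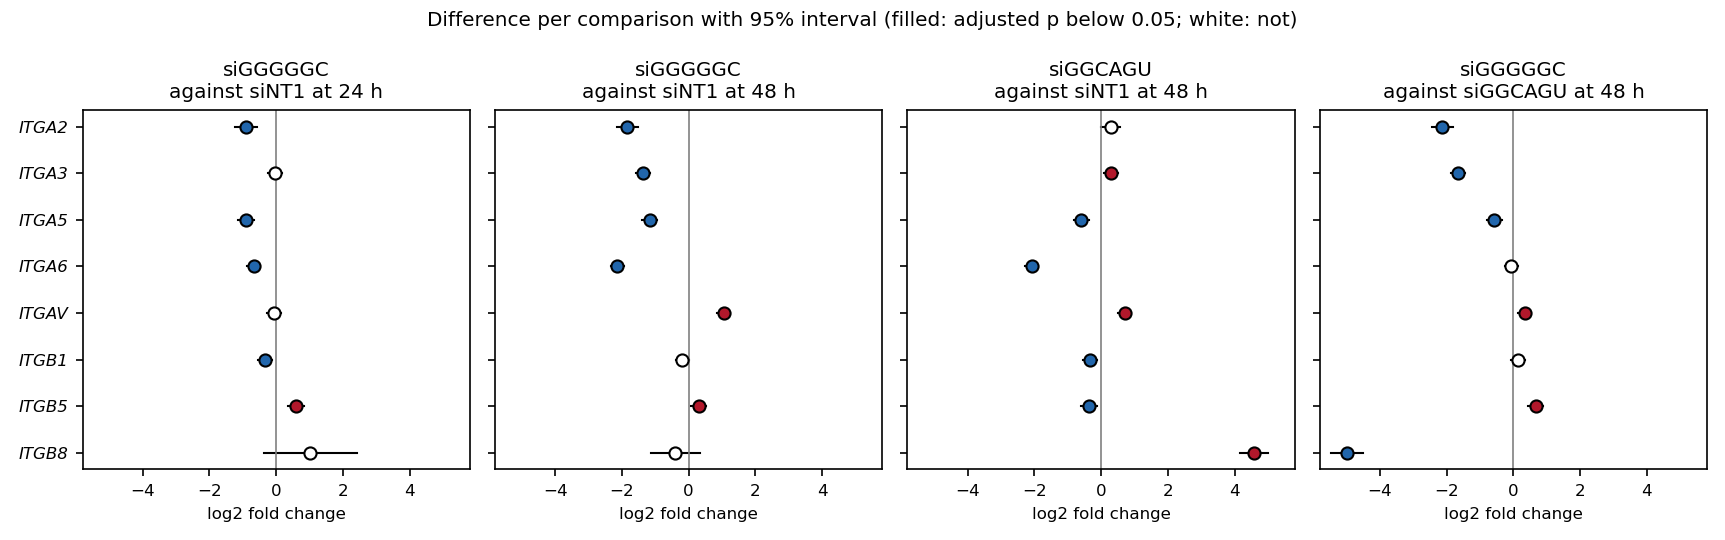
Log2 fold change of the 8 integrin subunits tested, with the 95% interval as a line, in 4 comparisons. Blue points are lower and red points higher at an edgeR adjusted p below 0.05, and white points did not pass. ITGA6 is at -2.14 with siGGGGGC and -2.07 with siGGCAGU at 48 h, while ITGA2 and ITGA3 are below 0 with siGGGGGC only and ITGB8 is at 4.59 with siGGCAGU.

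Both duplexes carry the same dose and time at 48 h and differ in the 6mer seed, so they were compared directly. Of 8 subunits, 4 were lower and 2 higher with siGGGGGC than with siGGCAGU by edgeR at an adjusted p below 0.05, beside 27.6% and 26.7% of all genes. In 6 of 10 subunits both siGGGGGC libraries lay below both siGGCAGU libraries and in 4 above, beside 38% and 37.7%. ITGB8 was 31.6-fold lower with siGGGGGC (-4.98 ± 0.23, edgeR adjusted p = 1.59e-10). ITGA2 was 4.38-fold lower (-2.13 ± 0.15, edgeR adjusted p = 1.1e-08) and ITGA3 3.15-fold lower (-1.65 ± 0.098, edgeR adjusted p = 1.93e-09). These were the subunits on which the seeds differed beyond a log2 fold change of 1, and by that rule 12.8% of all genes were lower and 10.1% higher. ITGA5 was also lower (-0.57 ± 0.11, edgeR adjusted p = 0.000373), and ITGB5 (0.67 ± 0.11, edgeR adjusted p = 9.39e-05) and ITGAV (0.34 ± 0.091, edgeR adjusted p = 0.00513) were higher. For ITGA6 the 95% interval of the difference ran from -0.25 to 0.13, with 7318 and 7019 normalised counts against 7619 and 7365. For ITGB1 it ran from -0.067 to 0.34. A missed threshold does not show that the seeds act alike on these genes.

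Set beside the seed matches printed above, the values did not follow one pattern. Of the 4 tested subunits with GCCCCC, ITGA2, ITGA3 and ITGA5 were lower with siGGGGGC at 48 h, ITGA2 and ITGA5 also at 24 h. ITGB5, with an 8mer, was higher at both times. Its 48 h call was lost without siNT1 replicate 2 and without siGGGGGC replicate 2. ITGA6 holds no GCCCCC in the 3′ UTR searched and had the lowest log2 fold change of the 8 with siGGGGGC at 48 h. Of the 2 tested subunits with ACTGCC, ITGA6, with a 6mer, was lower with siGGCAGU and ITGB8, with an 8mer, was higher. These matches are those of the longest annotated 3′ UTR. In the shortest, ITGA3 and ITGA5 hold 0 GCCCCC and ITGA6 and ITGB8 hold 0 ACTGCC, while ITGA2 and ITGB5 keep GCCCCC. Whether any of these words is bound was not tested.

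The pattern of each tested subunit over the 10 libraries was compared with 99 other genes of the adhesion lists by Pearson's r of log2 CPM, which describes libraries that share groups and is given with no test. ITGA6 was most like FERMT1, the gene of kindlin-1 (r = 0.975). ITGA2 (r = 0.962) and ITGA3 (r = 0.957) were both most like FN1, the gene of fibronectin, and they were each other's closest subunit (r = 0.913). Both are α partners of β1. ITGA5 was most like ZYX, the gene of the adhesion protein zyxin (r = 0.894), and ITGB1 most like CD47 (r = 0.856). ITGAV was most like FERMT3 (r = 0.937) and least like ITGA6 among the subunits (r = -0.871). ITGB5 was most like TGFB1 (r = 0.89) and ITGB8 like LAMA3, a laminin chain gene (r = 0.968), a value that rests on the 2 siGGCAGU libraries where ITGB8 was high.

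Of 16 further integrin subunit genes, 7 passed the filter on low counts. With siGGGGGC at 24 h 0 were called by edgeR, DESeq2 or limma-voom (1 higher at an unadjusted edgeR p below 0.05). By edgeR 10.6% of all genes tested were higher there and 8.32% lower. At 48 h with siGGGGGC 1 was higher and 2 were lower, beside 27.8% and 27.5% of all genes tested. With siGGCAGU 1 was higher and 1 lower, beside 27.8% and 24.9%. ITGAE, the partner of β7, was the one with the highest count and had a mean of 649 normalised counts with siGGCAGU against 830 in siNT1 (-0.36 ± 0.096, edgeR adjusted p = 0.00573). The others that passed, chosen for naming after their values were seen, were the leukocyte subunit ITGB2 with siGGGGGC (1.01) and with siGGCAGU (0.79), and ITGA1 (-0.91) and ITGA7 (-0.91) with siGGGGGC. None of these met the rule for named list genes, a mean normalised count of at least 100 and no overlap between groups. DESeq2 called 1 lower with siGGGGGC at 48 h, not 2.

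Of 18 genes that activate integrins or build the adhesion scaffold, 5 were higher and 2 lower with siGGGGGC at 24 h, 3 higher and 8 lower at 48 h, and 4 higher and 5 lower with siGGCAGU. FERMT1 was lower with siGGGGGC at 24 h (246 against 418 normalised counts, log2 fold change -0.77) and with siGGCAGU (66.5 against 426, -2.67). The rule for named list genes takes only the largest fall per list, so FERMT1 with siGGGGGC at 48 h is not given. ACTN4, which crosslinks actin, was higher at 24 h (0.66). At 48 h FERMT2, the gene of kindlin-2, was higher with siGGGGGC (0.79), and TNS1, the gene of tensin-1, was lower (-2.57). LIMS1, which ties integrin-linked kinase to the adhesion, was higher with siGGCAGU (1.26). Of 14 signalling genes, 5 were higher and 0 lower with siGGGGGC at 24 h (0 lower also by DESeq2, by limma-voom and at an unadjusted edgeR p below 0.05), 8 higher and 2 lower at 48 h, and 3 higher and 6 lower with siGGCAGU. The adaptor gene BCAR1 was higher at 24 h (0.80), the Src family kinase gene FYN at 48 h with siGGGGGC (1.58) and the small GTPase gene CDC42 with siGGCAGU (0.93). GIT1, an adhesion scaffold gene, was lower at 48 h with siGGGGGC (-1.52) and with siGGCAGU (-0.99).

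The counts of the next 2 lists also stand beside 10.6% of all genes higher and 8.32% lower with siGGGGGC at 24 h. The shares were 27.8% and 27.5% with it at 48 h, and 27.8% and 24.9% with siGGCAGU. Of 15 inhibitors and trafficking genes tested, 3 were higher and 1 lower with siGGGGGC at 24 h. At 48 h, 3 were higher and 6 lower with siGGGGGC, and 5 higher and 4 lower with siGGCAGU. FLNA, which competes with talin for β tails, was higher at 24 h (0.63), and SHARPIN, an inhibitor that binds α tails, was lower at 48 h with siGGGGGC (-1.26). DAB2, an endocytic adaptor of integrins, was lower with siGGGGGC at 24 h (-0.45) and higher with siGGCAGU (1.44). RAB11A, of the recycling path, was higher with siGGGGGC at 48 h (0.50), and RAB21, of the endocytic path, was lower with siGGCAGU (-0.93). Of 11 membrane and hemidesmosome partners, 4 were higher and 0 lower with siGGGGGC at 24 h (0 lower by DESeq2 and limma-voom, 1 at an unadjusted edgeR p below 0.05), 3 higher and 4 lower with it at 48 h, and 4 higher and 3 lower with siGGCAGU. The tetraspanin gene CD9 was higher at 24 h (0.65). The tetraspanin gene CD82 was higher at 48 h with siGGGGGC (2.27) and with siGGCAGU (1.77), and COL17A1, a hemidesmosome collagen gene, was lower with both (-1.63 and -2.14). Each fold change in this and the preceding paragraph is on the log2 scale, with an edgeR adjusted p below 0.05.

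Ligand genes were called in both directions. Of 27 ligand and latent TGF-β genes tested, 7 were higher and 5 lower with siGGGGGC at 24 h, beside 10.6% and 8.32% of all genes. With siGGGGGC at 48 h, 6 were higher and 9 lower, beside 27.8% and 27.5%. With siGGCAGU, 12 were higher and 4 lower, beside 27.8% and 24.9%. The list median was 0.087, -0.21 and 0.59 on the log2 scale in the same order, beside 0.0035, -0.011 and 0.024 over all genes. CCN2, a matricellular protein that binds integrins, had a mean of 4481 normalised counts with siGGGGGC at 24 h against 1607 in siNT1 (1.48 ± 0.15, edgeR adjusted p = 6.78e-06), and FN1 had 1809 against 4959 (-1.46 ± 0.12, edgeR adjusted p = 1.36e-06). ICAM1, a ligand of the leukocyte integrins, had the largest rise that the naming rule took from this list with both siRNAs at 48 h. It had 326 normalised counts with siGGGGGC and 776 with siGGCAGU against 16.2 in siNT1, log2 fold changes of 4.33 and 5.57 (edgeR adjusted p = 3.25e-11 and 3.64e-12). TNC, the matrix protein tenascin-C, had the largest fall by that rule, with 507 and 2496 against 6689 (-3.72 and -1.42).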

How the data were processed

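RNA was sequenced from 10 HeyA8 libraries in 5 groups of 2, grouped by the transfection and time labels. Per the study's methods the libraries were made from total RNA depleted of ribosomal RNA. The submitters' processing notes name TopHat, Bowtie2, HTSeq and DESeq2 with no versions and the hg38 build, while the study's methods name TopHat or STAR and htseq with an Ensembl release of the hg38 transcriptome. Which aligner served these libraries and the strand setting are not given in the sources used here. The authors deposited raw read counts per Ensembl gene, not normalised, for 58395 genes, with 0 counts in entries that name no gene. Their 4 tables of comparisons, which hold mean counts, fold changes and p-values, were not used.

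Counts were tested with edgeR 4.0.16 (R 4.3.3) by the quasi-likelihood F test with TMM normalization, in a fit of all 10 libraries with 5 groups, which left 5 residual degrees of freedom. filterByExpr kept 16905 genes, and adjusted p-values are those of Benjamini and Hochberg over these genes. A gene was called at an adjusted p below 0.05, and a second rule added a log2 fold change beyond 1. The named list genes are, for each siRNA against siNT1, the largest rise and fall per list among genes called, with a mean normalised count of at least 100 and no overlap between groups. The members, the lists and the tests were chosen with earlier results of these data known. Gene models, hg38 coordinates and 3′ UTRs were from GENCODE 44, which held 98.9% of the gene identifiers. Antisense genes overlap at most 5.26% of the exon bases of a member, and without strand their reads cannot be told apart from those of the member. Total counts of 19781445 to 42428986 per library set the precision, and floors cover counting error only, with 3 counts as the limit that a 0 allows. Alternatives were DESeq2 1.42.0, limma-voom (limma 3.58.1), other size factors, other filters, totals without RN7SL2 and SNORD3A (19.8% to 32.0% of counts), a replicate block, only the libraries compared, and leaving out each library. The tests were also run on simulated data with the same spread set for every gene and group. That run checks the fit, not how the replicates of these libraries vary. Differences between replicate numbers correlated at -0.089 to 0.027 over 10 pairs of groups, so the numbers were not taken to pair libraries.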

Additional observations from a re-analysis of the deposited data

Results flagged for a closer look

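A set of 4 integrin subunits had a siGGGGGC effect that differed between 48 h and 24 h by the interaction term of edgeR's quasi-likelihood fit. The difference of the log2 fold changes was -1.464 for ITGA6 (24 h -0.67, 48 h -2.14), -1.316 for ITGA3 (-0.042, -1.36), -0.9388 for ITGA2 (-0.90, -1.84) and 1.119 for ITGAV (-0.069, 1.05). The adjusted p was 1.05e-06, 6.32e-06, 0.00384 and 1.83e-05 in that order, and 15.2% of all genes tested were called lower and 13.4% higher by this term. In the control cells ITGA3 (0.71) and ITGA2 (0.48) were themselves higher at 48 h than at 24 h, and ITGA6 (0.11) and ITGAV (0.27) did not pass. No library was tested as an outlier, since each group held 2.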

How the results depend on the processing

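Among the values of single subunits, 414 of those under 9 other settings stayed on their side of the threshold with the same sign, 12 gained a call, 5 lost a call and 0 changed sign. Without 1 library, 198 stayed, 3 gained a call, 21 lost a call and 2 changed sign. Those 2 were ITGAV with siGGGGGC at 24 h, which was not called and came to 0.00043 without siNT1 replicate 2 and 0.038 without siGGGGGC replicate 2, in a range of -0.166 to 0.038. The number of subunits higher with siGGGGGC at 48 h was 1 rather than 2 with no low-count filter (ITGB5 adjusted p = 0.284) and with only the libraries compared (ITGB5 adjusted p = 0.0539), and the cause was not tested. The calls gained were ITGB1 with siGGGGGC at 48 h with no filter (-0.31, adjusted p = 0.00416), ITGA2 with siGGCAGU by limma-voom (0.29, adjusted p = 0.044), the ITGB5 interaction with no filter (-0.43, adjusted p = 0.0493), and ITGAV and ITGB1 in siNT1 at 48 h against 24 h under 4 and 5 settings (adjusted p 0.00177 to 0.0493). Other calls lost were ITGA3 with siGGCAGU, with no filter (adjusted p = 0.133) and with only the libraries compared (0.172), and ITGB1 with siGGCAGU with only the libraries compared (0.0666). With the shortest 3′ UTR, which holds fewer bases, GCCCCC was in 3 subunits (15.9% of all genes, against 30.2% with the longest) and ACTGCC in 0 (15.5%, against 32.7%).

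Leaving out 1 library gave 1 to 2 subunits higher with siGGGGGC at 48 h, 2 to 5 higher with siGGCAGU (5 without siGGCAGU replicate 1, by ITGA2 and ITGB3), 1 to 3 higher with siGGGGGC than with siGGCAGU (1 without siGGGGGC replicate 1, where ITGAV had an adjusted p of 0.057), and 1 to 6 higher in siNT1 at 48 h than at 24 h. With 1 library left in a group, that library is assumed to vary like the others. At 24 h, 3 subunits were lower without any one library, against 4. With the replicate number as a block (replicate block), the ITGA6 log2 fold change at 48 h was -2.136 with siGGGGGC and -2.072 with siGGCAGU, and no call of a subunit changed. Other size factors left the median of all genes within 0.1 of 0 on the log2 scale, and with no filter it was at 0.14 for the interaction term. ITGB3 and ITGB4 had at most 25 and 10 reads in a library, and ITGB8 at most 24 outside siGGCAGU, which limits what could be resolved for them. Over all genes, 3203 were called with siGGGGGC at 24 h, and 5105 with only the 4 libraries compared.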
